A study of Mus musculus with 8 samples.

Results

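The S100 genes described here are the 10 whose symbols make up a fixed list of S100 proteins known from epithelia and their neighbours: S100a1, S100a4, S100a6, S100a10, S100a11, S100a13, S100a14, S100a16, S100b and S100g. They are 10 of 24421 genes in the count files, and were taken by symbol, from a list drawn up with earlier results of these data known. The files hold 17 genes with S100 symbols in all, among them S100pbp, whose protein binds S100 proteins and is not of the family. RNA bound to tagged ribosomes (RiboTRAP) was sequenced from kidneys of 8 mice, 4 with ischemia-reperfusion injury (IRI) and 4 sham, to ask how gene expression in the collecting duct differed after injury. All mice carried the Gt(ROSA)26Sor-mCherry-Rpl10a allele, which adds an mCherry tag to a ribosomal protein, switched on by HoxB7-Cre, a Cre driver of the collecting duct lineage. The mice were males of 10 to 16 weeks. IRI mice had the renal vessels clamped for 30 min and the kidneys were taken 9 h later, while sham mice had the surgery without the clamp. The tag labels every cell with a history of Cre, so principal cells, intercalated cells and other descendants of that lineage are pooled in each library.

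S100 proteins are small calcium-binding proteins with a pair of EF-hand loops that usually act as dimers. Calcium binding opens a groove that takes up a partner protein, such as an annexin, a myosin or a kinase, so most S100 proteins relay calcium signals or steady membrane and cytoskeletal complexes. A few differ: S100a10 no longer needs calcium to bind its partner, and S100g is a calcium buffer of transporting epithelia. In the kidney, S100g and the unrelated calbindin Calb1 carry calcium across cells of the distal nephron, and other S100 proteins are found in ducts, in muscle, in glia and in myeloid cells.

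After IRI the annexin-binding members S100a10, S100a11 and S100a6 and the epithelial members S100a14 and S100a16 were higher, S100a1 was lower, and S100a13, S100a4 and S100g did not pass the test. Of the 10 genes, 9 had enough counts to be tested and S100b did not. Among those 9, 5 were called higher and 1 lower in the edgeR quasi-likelihood test at an adjusted p of 0.01, where 49.7% of all 14606 tested genes were called, 25.1% higher and 24.6% lower. The groups did not overlap for the same number of members, 5 higher and 1 lower, beside 58.6% of all tested genes (28.8% higher, 29.8% lower). The median log2 fold change was 0.88 over the 9 members and -0.01 over all tested genes. With so many genes called in both directions, the sizes of the changes tell more than the number of calls. Values below are library-scaled count rates (CPM, TMM factors), written as mean ± SD of the n = 4 mice in a group, with fold changes and adjusted p-values from edgeR and standard errors from limma-voom. Replicates are separate mice. A library of ribosome-bound RNA from many cells cannot tell fewer cells of a type from less RNA per cell.

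**Figure D1:**
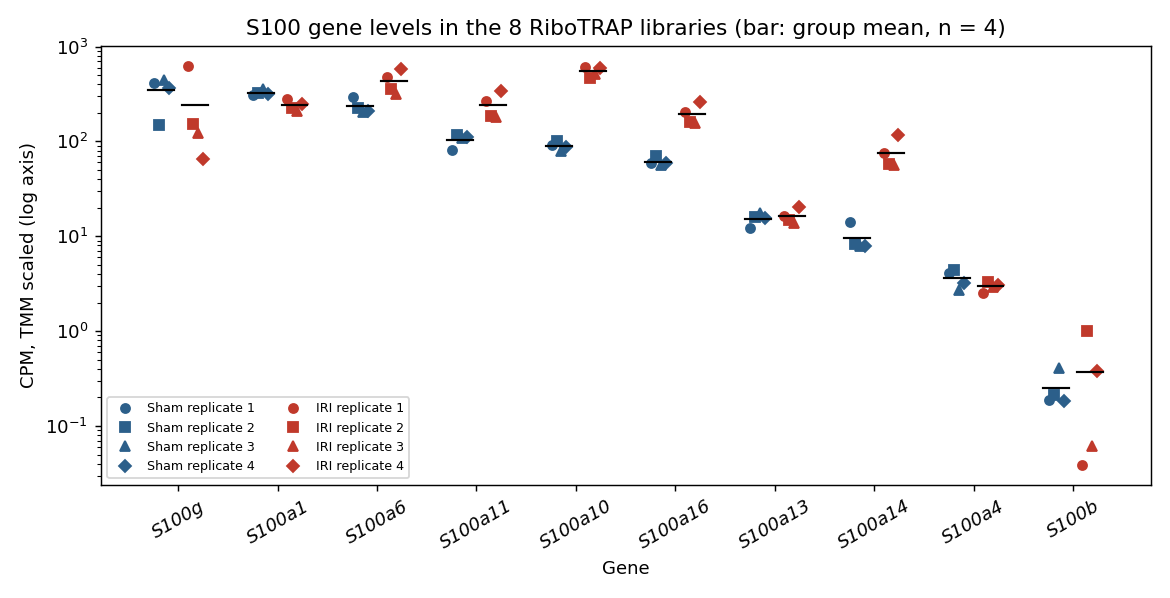
Levels of the 10 S100 genes in each of the 8 libraries in CPM on a log axis, blue for sham and red for IRI, with a symbol for each replicate and a black bar at the group mean. The IRI points lie above the sham points for S100a6, S100a11, S100a10, S100a16 and S100a14 and below them for S100a1. The gaps are small for S100a6 and S100a1. The IRI points of S100g are spread from 66.0 to 625 CPM.

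Libraries held 13518005 to 27496808 counts in genes after IRI and 25210299 to 29285812 in sham. Of all counted lines, reads without a unique alignment, which are not given to a gene, were 29.5% to 34.3% in IRI libraries and 20.9% to 22.8% in sham libraries. The 14 summed markers of principal cells, among them the water channel genes, were at 18291 ± 1882 CPM in sham and 4067 ± 1057 CPM after IRI, with 13 of 14 lower. Those of intercalated cells were at 6336 ± 479.5 CPM in sham and 3047 ± 529 CPM after IRI, with 16 of 17 lower. Urothelial markers, of a lining that also comes from the ureteric bud, summed to 168 ± 86.6 CPM in IRI libraries and 292 ± 55.6 in sham libraries (2 of 7 lower). Markers of cells outside the lineage did not share a direction. Those of the proximal tubule summed to 13709 to 27455 CPM after IRI and 9660 to 12642 in sham (12 of 18 higher, none lower), those of neutrophils to 62.8 to 179.8 CPM after IRI and 3.04 to 6.33 in sham (9 of 10 higher), and those of macrophages to 235 to 258 CPM after IRI and 85.7 ± 21.1 in sham (6 of 13 higher). Endothelial and fibroblast lists had 6 of 12 and 2 of 12 genes higher and none lower. The thick limb and distal convoluted tubule list had 3 of 12 higher and 2 lower. The Schwann and neural list, summing to 266 ± 54.9 CPM in IRI and 558 ± 46.4 in sham libraries, had 3 of 9 lower and none higher. Sox10 on that list had few counts, given below with S100b, so other genes made up nearly all of that sum. Which cells that sum came from was not tested. Of 2 lymphocyte markers tested, 1 was lower. No marker of these lists was at 0 in every library. S100a4, S100a6, S100a10 and S100a11 are also made by leukocytes or stromal cells, and the part of such cells in the values below was not tested. By their animal numbers the mice form a low series (3 IRI, 1 sham) and a high series (1 IRI, 3 sham), so series and injury are partly tied together. A fit that also held the series called 42.2% of genes, 21.5% higher and 20.8% lower. Log2 differences within each series are given with the genes.

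S100a10 had the smallest relative error of the genes that rose. Its protein, also called p11, binds annexin A2 as a tetramer at the plasma membrane, where the complex gathers plasminogen activator and anchors ion channels. It was at 609.5, 466, 518 and 595 CPM in IRI replicates 1 to 4 and at 92.2, 102, 79.8 and 86.3 CPM in sham replicates 1 to 4. Every IRI library stood more than 4-fold above the highest sham library. The means were 547 ± 67.4 and 90.0 ± 9.32 CPM, a 6.08-fold rise (log2 fold change 2.60 with an SE of 0.11, edgeR adjusted p = 9.0e-07). Only 3.09% of the tested genes rose by as much. Within the low and the high animal number series the log2 difference was 2.52 and 2.75.

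Anxa2, which encodes annexin A2, was 6.03-fold higher (edgeR adjusted p = 4.7e-06), almost the same fold as S100a10. The ratio of S100a10 to Anxa2 counts within a library was 0.525 to 0.678 after IRI and 0.520 to 0.702 in sham. On the log2 scale the ratio was -0.73 ± 0.15 after IRI and -0.74 ± 0.22 in sham, a difference of 0.01 (exact permutation test, two-sided, p = 0.943, adjusted p = 0.943 over 3 ratios). The ranges overlapped almost wholly. Within the low series, however, the difference was 0.28, and within the high series it was -0.26, each with a single library on the smaller side.

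S100a11, or calgizzarin, pairs with annexin A1 in membrane repair and vesicle traffic. It was at 265, 183, 183 and 336 CPM in the IRI libraries and at 82.1, 117, 108 and 110.5 CPM in the sham libraries. The lowest IRI value was above the highest sham value. The means of 242 ± 74.0 and 104 ± 15.3 CPM differed 2.32-fold (log2 fold change 1.21 with an SE of 0.20, edgeR adjusted p = 7.8e-04). The log2 difference was 1.33 within the low series and 1.59 within the high series. Of the 50-base windows of the S100a11 transcript, 41.1% also occur in the pseudogenes Gm12854, Gm29240 or Gm7665. A read that lies within such a window may have no unique alignment, but alignments were not examined. The share of reads without a unique alignment over whole libraries differed between the groups, as given above, and its part in this fold change was not tested.

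Anxa1, the annexin A1 gene, rose 7.58-fold (edgeR adjusted p = 1.1e-05), so here gene and partner did not move by the same fold. The ratio of S100a11 to Anxa1 counts was 1.65 to 4.14 in sham and 0.629 to 0.885 after IRI. The log2 ratio was 1.35 ± 0.57 in sham and -0.43 ± 0.22 after IRI, a 3.44-fold fall (difference -1.78, exact permutation test, two-sided, p = 0.0286, which 4 mice against 4 cannot go below, adjusted p = 0.0857 over 3 ratios). The groups did not overlap, but the adjusted value did not pass 0.01 or 0.05, and no ratio could have passed 0.01 in a design of this size. Within the low series the difference was -1.19, and within the high series it was -1.88, each with a single library on the smaller side.

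**Figure D2:**
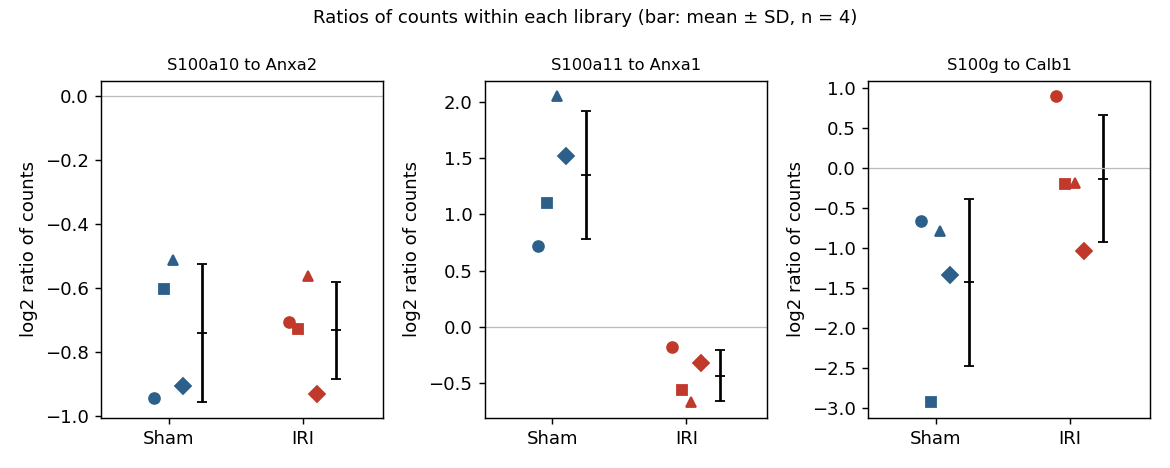
Log2 ratios of counts within each library for S100a10 to Anxa2, S100a11 to Anxa1 and S100g to Calb1, with a point per library and a bar at mean ± SD, n = 4. The groups lie on top of each other in the left panel (-0.73 after IRI and -0.74 in sham), are apart in the middle panel (-0.43 and 1.35) and overlap in the right panel (-0.13 and -1.42).

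S100a6, or calcyclin, binds annexins and the ubiquitin ligase adaptor CacyBP and is abundant in dividing and in stromal cells. It was at 472, 357, 318 and 575 CPM after IRI and at 295, 225, 204 and 210.2 CPM in sham. The groups did not overlap, but IRI replicate 3 lay close above sham replicate 1. The means were 430.5 ± 116 and 233 ± 41.8 CPM, a 1.85-fold rise (log2 fold change 0.88 with an SE of 0.19, edgeR adjusted p = 0.00359). The call did not hold without IRI replicate 1 (edgeR adjusted p = 0.0105) or without sham replicate 2 (0.0115), 3 (0.0117) or 4 (0.0127). The log2 difference was 0.36 within the low series and 1.43 within the high series, and with the series as a covariate it was 0.90 (edgeR adjusted p = 0.00865). Summed fibroblast markers were at 309 to 1714 CPM after IRI, the highest in IRI replicate 2, and at 351 ± 64.4 CPM in sham. IRI replicate 2 had neither the highest nor the lowest S100a6 level, and the part of fibroblasts in the S100a6 values was not tested.

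The largest fold change of the 10 genes was that of S100a14, a member of many lining epithelia that is tied to cell motility and differentiation. It was at 75.0, 57.2, 56.7 and 116 CPM after IRI and at 14.04, 8.21, 7.92 and 7.87 CPM in sham. Even the highest sham library, replicate 1, was far below the lowest IRI library. The means of 76.3 ± 28.0 and 9.51 ± 3.02 CPM differed 8.04-fold (log2 fold change 3.01 with an SE of 0.29, edgeR adjusted p = 2.5e-05), and 2.17% of the tested genes rose by as much. The fold was 9.42 without sham replicate 1 and 6.64 without IRI replicate 4. The log2 difference was 2.15 within the low series, whose single sham library is replicate 1, and 3.86 within the high series, whose single IRI library is replicate 4.

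S100a16 is among the most widely expressed members of the family across tissues. It was at 202, 161, 155 and 262 CPM after IRI and at 58.6, 69.9, 56.1 and 59.5 CPM in sham, with a wide gap between the groups. The means of 195 ± 49.2 and 61.0 ± 6.07 CPM differed 3.20-fold (log2 fold change 1.68 with an SE of 0.16, edgeR adjusted p = 3.1e-05). As large a rise was seen in 7.61% of the tested genes. The log2 difference was 1.55 within the low series and 2.09 within the high series.

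The IRI libraries kept a common order for several of these genes. S100a6, S100a11, S100a14 and S100a16 were each highest in IRI replicate 4 and next highest in IRI replicate 1. The summed neutrophil markers were 90.7 and 62.8 CPM in those libraries, lower than the 167 and 179.8 CPM of IRI replicates 2 and 3. Duct and urothelial marker sums, in contrast, were higher in replicates 4 and 1: urothelial markers were at 242 and 243 CPM there, against 109 and 79.2 CPM in replicates 2 and 3. Principal cell markers were at 5519.5 and 4177 CPM, against 3219 and 3351 CPM, and intercalated cell markers at 3759 and 3018 CPM, against 2924 and 2486 CPM. Sums of other lists did not all have this order. Thick limb and distal convoluted tubule markers were at 2055 and 3298 CPM, against 3135 and 2666 CPM. Those of the proximal tubule were at 13709 and 25583 CPM, against 17054 and 27455 CPM. Replicates 4 and 1 also held more counts, 22625170 and 27496808, against 13518005 and 17223554. Their share of reads without a unique alignment was lower, at 29.9% and 29.5%, against 34.3% and 33.0%. The part of these cells or of library depth in the order of the S100 genes was not tested. The myeloid S100 genes S100a8 and S100a9, whose proteins form calprotectin in neutrophils, had the other order. S100a8 was at 9.36, 27.2, 24.5 and 9.77 CPM after IRI and at 0.333 to 0.887 CPM in sham, a rise of 32.9-fold (log2 fold change 5.04, edgeR adjusted p = 2.7e-05). Both are on the neutrophil list, whose other 11 genes summed to 35.1, 88.0, 103 and 58.5 CPM in IRI replicates 1 to 4. The closest pair among the 9 tested members was S100a11 and S100a16, whose centred log2 profiles over the 8 libraries differed by a root mean square of 0.274.

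S100a1 was the only member called lower. It is best known from heart and skeletal muscle, where it tunes calcium release and uptake, and it is also made in kidney tubules. It was at 278, 225, 208 and 249 CPM after IRI and at 308, 319.8, 354 and 318 CPM in sham. Although the groups did not overlap, the gap between IRI replicate 1 and sham replicate 1 was small. The means were 239.9 ± 30.6 and 325 ± 19.8 CPM, 1.35-fold lower (log2 fold change -0.44 with an SE of 0.10, edgeR adjusted p = 0.00492), which is a small change beside that of the summed principal cell markers. The call did not hold when the series was a covariate (log2 fold change -0.39, edgeR adjusted p = 0.0246) or without IRI replicate 2 (0.0162), IRI replicate 3 (0.0137), sham replicate 2 (0.0110) or sham replicate 3 (0.0121). The direction was the same in every case, and the log2 difference was -0.39 within the low series and -0.41 within the high series.

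S100a13 helps growth factors such as FGF1 and interleukin-1 alpha leave the cell without a signal peptide. It was at 16.4, 14.7, 13.9 and 20.1 CPM after IRI and at 12.1, 15.8, 17.7 and 15.6 CPM in sham, with overlapping groups. The means of 16.3 ± 2.76 and 15.3 ± 2.32 CPM did not differ beyond their spread (log2 fold change 0.09 with an SE of 0.15, edgeR adjusted p = 0.622), and the sign turned under total-count scaling, to -0.10. Within both animal number series the log2 difference was 0.30 (edgeR adjusted p = 0.0423 with the series as a covariate), still short of 0.01.

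S100a1 and S100a13 lie back to back on chromosome 3 and are read in opposite directions, so the interval between their starts belongs to both. S100a1 runs from 90511034 to 90514392 on the minus strand and S100a13 from 90514435 to 90524581 on the plus strand (GENCODE annotation of GRCm38). The 104 bases between the RefSeq starts (GRCm38.p6, chr3:90514331-90514434, plus strand) are shown because the 2 genes on either side differed in their levels throughout. Neither the AP-1 nor the TEAD motif described below was found in them.
S100a1 to S100a13, between the starts: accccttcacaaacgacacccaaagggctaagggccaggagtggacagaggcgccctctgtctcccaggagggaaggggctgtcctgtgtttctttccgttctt
S100a13 counts were 5.89%, 6.55%, 6.69% and 8.08% of S100a1 counts in the IRI libraries and 3.94%, 4.95%, 5.01% and 4.89% in the sham libraries. These shares did not overlap. This ratio was picked after the values were seen and was not tested.

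S100a4, called metastasin or FSP1, binds non-muscle myosin and marks fibroblasts and myeloid cells rather than duct epithelium. It was near the bottom of the range, at 2.55, 3.27, 2.93 and 3.08 CPM after IRI and at 4.14, 4.39, 2.72 and 3.22 CPM in sham. The groups overlapped, with means of 2.96 ± 0.307 and 3.62 ± 0.781 CPM (log2 fold change -0.29 with an SE of 0.21, edgeR adjusted p = 0.224), and the log2 difference was -0.51 within the low series and -0.13 within the high series. Macrophage and fibroblast marker sums were higher or more scattered after IRI, as given above, and the part of such cells in the S100a4 values was not tested. Exons of Gm42674 cover 51.7% of the S100a4 exon length, and reads there cannot be given to either gene with certainty.

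S100b, the S100 protein of glia and Schwann cells, was barely detected. It had 1, 13, 1 and 8 counts in the IRI libraries and 5, 6, 13 and 5 in the sham libraries, and failed the filter on low counts. A floor of 3 counts corresponds to 0.0950 to 0.234 CPM in these libraries, and 2 IRI libraries lay under it. A difference was not detectable at this depth (log2 fold change 0.40, edgeR adjusted p = 0.702 without a filter). Sox10, a transcription factor that defines Schwann cells, had 1 to 6 counts per library after IRI and 6 to 15 in sham.

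S100g encodes calbindin-D9k, the small calcium buffer that vitamin D induces in gut and kidney. It varied more among mice than any other tested member, at 625, 153, 122 and 66.0 CPM after IRI and at 412, 149, 448 and 368 CPM in sham. IRI replicate 1 was the highest of all 8 libraries, and the other 3 IRI libraries and sham replicate 2 were the lowest 4. The means of 242 ± 258 and 344 ± 134 CPM did not differ beyond this spread (log2 fold change -0.51 with an SE of 0.65, edgeR adjusted p = 0.512). Without IRI replicate 1 it was 3.04-fold lower (log2 fold change -1.60, edgeR adjusted p = 0.00934), so that mouse alone decided the call. With the series in the fit the fold was 2.58 (log2 fold change -1.37, edgeR adjusted p = 0.195), and the log2 difference was -0.86 within the low series and -2.14 within the high series.

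Its functional partners in distal calcium transport did not share 1 pattern. Calb1, or calbindin-D28k, was at 335, 175, 139 and 135 CPM after IRI and at 650.1, 1132, 771 and 928 CPM in sham, 4.44-fold lower and with no overlap (log2 fold change -2.15, edgeR adjusted p = 2.9e-04). Trpv5, the apical calcium channel, was at 104, 44.1, 34.1 and 26.1 CPM after IRI and at 22.4, 13.8, 27.9 and 30.5 CPM in sham, and did not pass the test (log2 fold change 1.14, edgeR adjusted p = 0.0398). Slc8a1, the basolateral sodium-calcium exchanger, was at 195 to 293 CPM after IRI and 382 to 468 in sham, 1.75-fold lower (log2 fold change -0.80, edgeR adjusted p = 5.3e-04). IRI replicate 1 was the highest IRI library for S100g, Calb1 and Trpv5, and sham replicate 2 was the lowest sham library for S100g and Trpv5 but the highest for Calb1. Summed markers of the thick limb and distal convoluted tubule, where S100g and Trpv5 are also found, were at 2789 ± 558 CPM after IRI and 3456 ± 563 in sham. Calb1 is itself on that list, with means of 196 CPM after IRI and 870 CPM in sham, so these sums are not separate from it. The part of these segments in the S100g values was not tested.

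The S100g to Calb1 ratio of counts was 0.489 to 1.86 after IRI and 0.132 to 0.634 in sham. Its log2 value was -0.13 ± 0.79 after IRI and -1.42 ± 1.04 in sham, 2.46-fold apart (difference 1.30, exact permutation test, two-sided, p = 0.0857, adjusted p = 0.129 over 3 ratios). The ranges overlapped and the difference did not pass the test. It was 0.83 within the low series and 0.65 within the high series. Over 12 genes of calcium handling tested, 4 were higher and 3 lower, beside 25.1% and 24.6% of all tested genes. The 12 had a median log2 fold change of 0.29. The higher ones included the plasma membrane pump Atp2b1 (2.08-fold) and the chaperone Calr (1.83-fold). Vdr, the vitamin D receptor, was not called (log2 fold change -0.04).

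**Figure D3:**
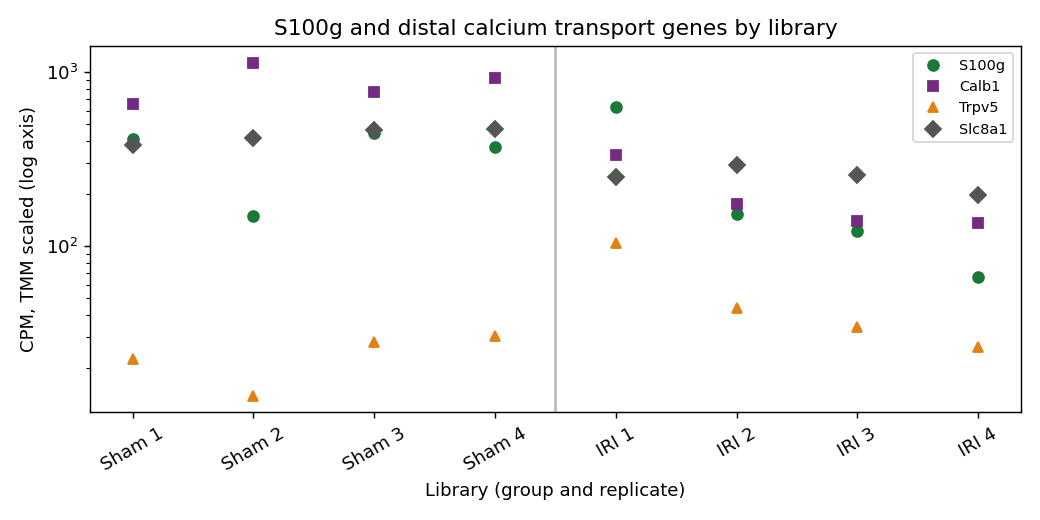
S100g, Calb1, Trpv5 and Slc8a1 in each library, in CPM on a log axis, sham on the left and IRI on the right. Calb1 and Slc8a1 are lower in all IRI libraries, whereas S100g spans 66.0 to 625 CPM after IRI and 149 to 448 CPM in sham.

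Divided by exon length, so that genes can be set beside each other, the levels (CPM per kb) had a different order in the groups. In sham S100g came first at 717 ± 279, then S100a1 at 468 ± 28.6, with overlapping ranges. S100a11 at 204 ± 30.0 and S100a6 at 171 ± 30.5 followed and also overlapped. Below them S100a10 at 74.3 ± 7.69, S100a16 at 37.7 ± 3.76 and S100a13 at 21.4 ± 3.25 were each clear of their neighbours, whereas S100a4 at 6.20 ± 1.34 and S100a14 at 5.51 ± 1.75 were not clear of each other.

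After IRI the top of that order was no longer separated. S100g at 503 ± 538, S100a11 at 473 ± 145, S100a10 at 452 ± 55.6, S100a1 at 346 ± 44.1 and S100a6 at 315 ± 85.1 each overlapped the next. S100a14 moved from below S100a13 to above it, at 44.2 ± 16.2 beside 22.8 ± 3.85. Summed in CPM, the 10 genes came to 1992 ± 472 after IRI and 1187 ± 126 in sham, and to 1750.2 ± 347 and 842 ± 26.1 without S100g. S100a10 made up 28.1 ± 3.73% of the sum after IRI and 7.71 ± 1.64% in sham, and S100a1 made up 12.3 ± 1.45% and 27.6 ± 3.11%.

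The members that rose and those that did not are mixed along chromosome 3. Of the 10 genes 8 lie there, 6 of them (S100a1, S100a13, S100a14, S100a16, S100a4 and S100a6) within 113 kb and the other 2, S100a11 and S100a10, 2.90 Mb further on and 28.8 kb apart, while S100b is on chromosome 10 and S100g on chromosome X. In map order the log2 fold changes were -0.44 for S100a1, 0.09 for S100a13, 3.01 for S100a14 and 1.68 for S100a16, then -0.29 for S100a4 and 0.88 for S100a6. Genes that rose thus stood next to genes that did not. S100a3, which lies between S100a16 and S100a4 and is known from hair cuticle, was at 0.545 to 2.04 CPM after IRI and 0.111 to 0.299 in sham. This was a rise of 5.45-fold (log2 fold change 2.45, edgeR adjusted p = 0.00160). The fold rests on few counts, 7 to 43 in IRI libraries and 3 to 8 in sham libraries, near the floor of 3 counts. Of the other genes listed around the 2 groups, all within 868 kb of a member, 17 were tested, with a median log2 fold change of -0.30. Of these, 3 were higher and 6 lower, beside 25.1% and 24.6% of all tested genes. The higher ones were Tpm3, a tropomyosin (3.27-fold), Slc39a1, a zinc transporter (2.32-fold), and Crtc2, a coactivator of CREB (1.43-fold).

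**Figure D4:**
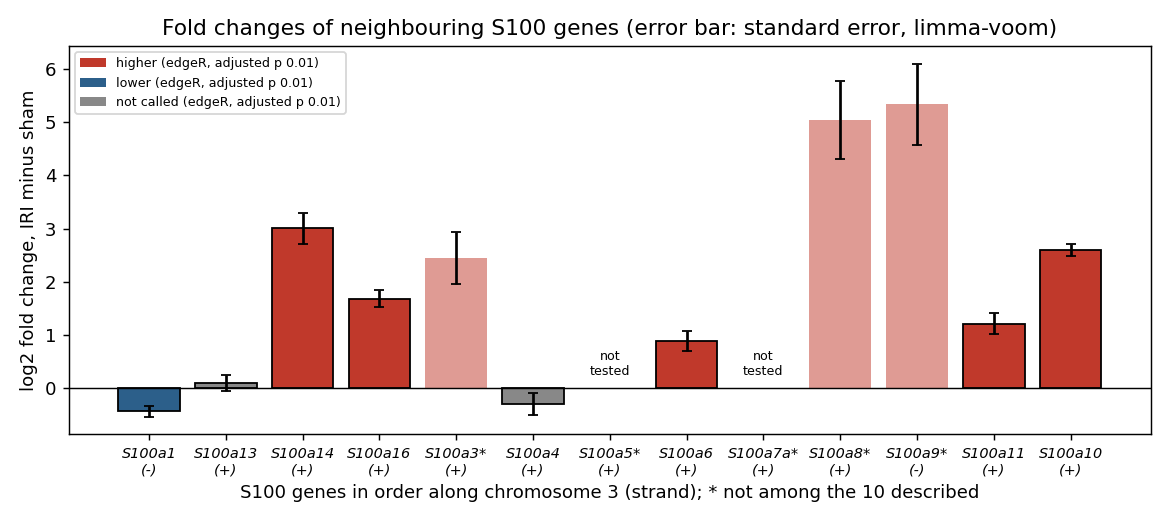
Log2 fold changes, IRI minus sham, of the S100 genes of chromosome 3 in map order, with the strand under each name and the standard error as a bar. S100a14, at 3.01, stands between S100a13, at 0.09, and S100a16, at 1.68, and genes marked with a star are S100 genes outside the 10 described.

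Promoter windows from RefSeq (GRCm38.p6) were matched for 8 of the 10 genes, with 9 windows because S100a16 has 2 starts. The others were S100a10 and S100a14. The letters TGANTCA, the site of the AP-1 factors Fos and Jun, were searched on both strands in the 250 bases before each start, as were the TEAD letters GGAATG. AP-1 letters were found in 2 of the 9 windows, those of S100a11 and of the second S100a16 start, both genes that rose, and in 6.75% of all promoters. The S100a11 window holds 2 matches, 136 and 38 bases before the start, and 0.338% of all promoters hold at least 2. The TEAD letters were in none of the 9 and in 12.6% of all promoters. The 2 windows with AP-1 letters are shown because they hold a match, with those letters in capitals. A match describes the letters only.
S100a11, chr3:93520246-93520495, plus strand: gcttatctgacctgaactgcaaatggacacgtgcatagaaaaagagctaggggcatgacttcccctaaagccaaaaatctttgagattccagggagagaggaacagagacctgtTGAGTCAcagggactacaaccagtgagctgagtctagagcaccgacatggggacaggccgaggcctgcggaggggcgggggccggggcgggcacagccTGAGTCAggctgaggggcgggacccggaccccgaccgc
S100a16 second start, chr3:90540896-90541145, plus strand: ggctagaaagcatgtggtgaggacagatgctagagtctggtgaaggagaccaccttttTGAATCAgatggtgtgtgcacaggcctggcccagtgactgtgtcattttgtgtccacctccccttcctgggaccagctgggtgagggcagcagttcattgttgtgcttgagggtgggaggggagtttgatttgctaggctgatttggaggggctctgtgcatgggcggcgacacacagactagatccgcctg
The first S100a16 start, S100a6, which also rose, and S100a1, S100a13, S100a4, S100b and S100g had no AP-1 letters in this window.

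Among 21 tested binding partners and targets of S100 proteins, 12 were higher and 2 lower, beside 25.1% and 24.6% of all tested genes. The 21 had a median log2 fold change of 0.65. Besides Anxa1 and Anxa2, the higher genes held Plat, the tissue plasminogen activator that docks on the S100a10 and annexin A2 complex (3.22-fold), and Myh9, the non-muscle myosin heavy chain bound by S100a4 (2.70-fold). The lower ones were the kinase Stk38, a target of S100b (1.47-fold), and the phosphatase Ppp5c (1.30-fold). Ager, the receptor for secreted S100 proteins, and Il1a and Plg had too few counts to be tested.

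Genes whose profile over the 8 libraries was most like that of a member were found among 9917 genes, by the root mean square difference of centred log2 values. For S100a10 they were Il13ra1 (0.109), 2200002D01Rik (0.145) and Basp1 (0.155). Those most like S100a14 were Itga2 (0.242), Krt8 (0.256) and Ttc9 (0.259), which include an integrin and a keratin of simple epithelia. S100a16 was nearest to Mboat1 (0.100), Mapk11 (0.105) and Actg1 (0.116), S100a11 to Txnrd3 (0.153), Cd24a (0.157) and Rars (0.161), S100a6 to Il18r1 (0.112), Ano1 (0.122) and Plekhg3 (0.124), and S100a1 to G6pdx (0.0445), Snx19 (0.0598) and Poc1b (0.0620). The distances of S100a1 were the smallest, as was its change, so distances are not set beside each other between members.

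**Figure D5:**
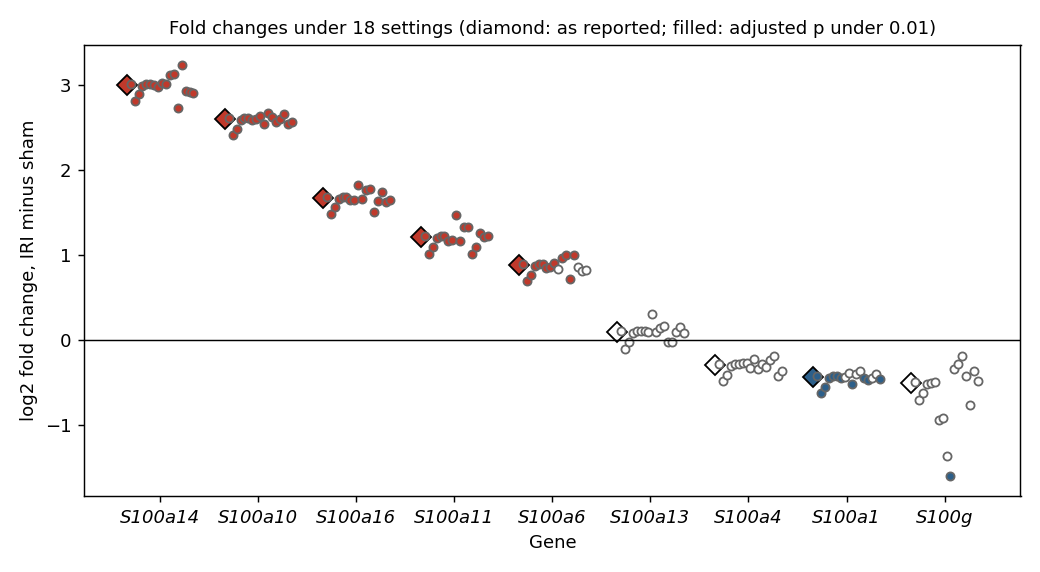
Log2 fold changes of the 9 tested members, IRI minus sham, as reported (diamond) and under each alternative setting (circle), filled where the adjusted p was under 0.01. S100a14, S100a10, S100a16 and S100a11 are filled throughout, S100a6 and S100a1 lose the call in some settings, and S100g gains it in 1, without IRI replicate 1.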

How the data were processed

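Libraries were depleted of ribosomal RNA. The authors used TopHat2 2.1.1 and the mm10 build for alignment, and the deposited values are raw HTSeq counts for each gene symbol, not normalized. Annotation release, counting mode and strand: not given in the sources used here. The 5 summary lines per library, which name no gene, were left out (43.3% to 52.3% of counted lines in IRI libraries, 33.3% to 37.7% in sham libraries).

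Of 24421 genes, 19205 had a count and 14606 passed filterByExpr (minimum count 10, minimum total 15). IRI was compared with sham by the edgeR 4.0.16 quasi-likelihood test in R 4.3.3, with TMM factors, Benjamini-Hochberg adjustment over all tested genes and a threshold of 0.01. Standard errors (SE) are those of voom in limma 3.58.1, and DESeq2 1.42.0 was an alternative. The biological coefficient of variation was 0.206. The fit was tested on simulated data. Ratios of counts were tested by exact permutation. Likeness was computed over genes whose mean reached 10 CPM, with an offset of 0.5 CPM.

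Named genes are the 10 members, the other S100 genes, up to 4 called members per direction of each list, stated partners, and the 3 most alike genes of each called member. Some genes that this choice names entered the tests and counts but are left out of the text. Members and lists were chosen with earlier results of these data known. Positions and exon lengths came from GENCODE on GRCm38. The animal number series was read from names the submitters gave. Counting noise is lowest where counts are high, so among the members S100b and S100a4 carry the most of it. Spread among mice comes on top, and S100g had the largest SE of the tested members (0.65).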

Additional observations from a re-analysis of the deposited data

Results flagged for a closer look

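In 3 of 20 groups of 4 libraries (10 genes in each of IRI and sham), a library stood apart from the other 3 by Dixon's test at the 95% level, which chance alone does in about 1 group in 20. S100a14 was at 14.04 CPM in sham replicate 1, against 7.87 to 8.21 CPM in the other sham libraries. S100g was at 625 CPM in IRI replicate 1, against 66.0 to 153 CPM in the other IRI libraries. S100b was at 0.412 CPM in sham replicate 3, against 0.185 to 0.212 CPM, a matter of 13 counts beside 5 or 6.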

How the results depend on the processing

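S100a10, S100a11, S100a14 and S100a16 were called higher under all alternatives run. The log2 fold change of S100a1 lost its call when the animal number series was a covariate (-0.39) and ran from -0.52 to -0.37 with each library left out. Over the same omissions S100a6 ran from 0.71 to 1.00 and S100g from -1.60 to -0.19, and S100g passed the threshold without IRI replicate 1. The cause was not tested. The difference in the S100a10 to Anxa2 log2 ratio was 0.28 in the low and -0.26 in the high animal number series. That of S100a11 to Anxa1 was -1.19 in the low and -1.88 in the high series. Total-count and upper-quartile scaling moved the median of all genes by -0.20 and -0.12, so that 2784 genes were higher and 4912 lower, or 3092 and 4393, against 3667 and 3595 as reported. Calls over all genes ran from 5582 to 8263 under the alternatives at the reported threshold. The reported fit read at a looser threshold of 0.05 called 9283 genes. Calls of members ran from 4 to 6 with a library left out.

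Replicate numbers are shared by the groups, but same-numbered mice did not deviate together (correlations of -0.07, -0.53, -0.36 and -0.37). With the replicate block, 5582 genes were called (38.2%), S100a1 had a log2 fold change of -0.44 (edgeR adjusted p = 0.0250) and lost its call, and the other members kept theirs.

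Markers of cells outside the lineage were detected in every group. Series and injury overlap in part, with 1 sham mouse in the low and 1 IRI mouse in the high series. At 4 mice per group the exact test of a ratio cannot go below 0.0286. S100b could not be judged at this depth, and S100a11 and S100a4 share sequence with other annotated genes.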

Other observations

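Among genes that carry an S100 domain fused to a longer chain, or that bind S100 proteins in the nucleus, 4 were tested. Of these, S100pbp was 1.28-fold lower, with 13.8 ± 0.790 CPM against 17.7 ± 0.660 CPM in sham (edgeR adjusted p = 0.00501). Rptn, a cornified envelope protein, was also called lower, its counts being 0 to 3 in IRI libraries but 24 to 35 in sham libraries. The other 2 had positive log2 fold changes and were not called. They were Tchh (0.80, edgeR adjusted p = 0.0191) and Tchhl1 (1.42, edgeR adjusted p = 0.0141). The median log2 fold change of the 4 was 0.22.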
